A study of Homo sapiens with 16 samples.

Results

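BZW2, PUS7, PSG9, FAM222A, NPM2 and MIR34AHG are 6 genes of 25812 tested chosen by how much their response to Myc knockdown differed, by unadjusted p, between MDA-MB-231 cells with and without TXNIP. MDA-MB-231 is an established cell line from a triple-negative breast cancer. Unedited cells (parental 231) were compared with 231:TKO cells, in which TXNIP had been deleted with CRISPR-Cas9 and clones grown from single cells. Each population was treated with a non-targeting siRNA (siNT) or an siRNA against Myc (siMyc), and RNA was sequenced after 48 hours in 3 replicates per group: parental 231+siNT, parental 231+siMyc, 231:TKO+siNT and 231:TKO+siMyc. Untreated parental 231 and untreated 231:TKO cells had 2 replicates each. The TXNIP gene is therefore disrupted by design in all 231:TKO groups, though some TXNIP RNA was still counted in each of their libraries. A difference between the populations cannot be told apart from a difference between an edited clone and its parent line.

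Myc is a transcription factor that binds DNA with its partner Max, most tightly at the E-box letters CACGTG, and drives genes for ribosome production, translation and cell growth. TXNIP is an arrestin-like protein that lowers glucose uptake, and its gene is controlled by the glucose-sensing factor MondoA, a relative of Myc that binds E-box-like elements. The 6 genes have unlike roles. BZW2 resembles the initiation factor eIF5 and takes part in the control of start codon choice, and PUS7 converts uridine to pseudouridine in tRNA and mRNA. PSG9 is a pregnancy-specific glycoprotein that the placenta secretes. FAM222A encodes a protein called aggregatin, known from amyloid plaques. NPM2 is nucleoplasmin, the histone chaperone of the egg. MIR34AHG is the long noncoding RNA from which the microRNA miR-34a is cut, and is a known target of p53, which is mutated in MDA-MB-231.

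Total counts lay between 18953668 and 59799444 per library. The siRNA-treated libraries were counted as read pairs and the untreated ones as single reads, and the siRNA-treated parental 231 libraries were counted on a later Ensembl release than the others. The siRNA-treated libraries held 48203939 to 59799444 counts in parental 231 and 31848151 to 39527700 in 231:TKO. In those libraries release and depth therefore went with the population and cannot be told apart from it. The coordinates and the length of all 6 genes were the same in both releases. Parental 231+siNT replicate 1 and parental 231+siMyc replicate 3 stood apart together. Their deviations from their own groups had a correlation of 0.947 over 10079 genes, and a spread (SD) of 0.249 and 0.234 on the log2 scale, against 0.0545 to 0.145 in the other siRNA libraries. The differences between the responses of the 6 genes are given with and without this pair. Of the markers of the line, VIM lay between 1814 and 3117 CPM (a gene's counts relative to the scaled total of its library), CD44 between 571 and 1360 and AXL between 647 and 2527, while the receptor genes ESR1 and PGR reached at most 0.305 and 0.0814 CPM. CDH1, the epithelial cadherin, lay between 0.267 and 9.42 CPM and was at 0 in no library. It was lower in untreated 231:TKO than in untreated parental 231 (log2 difference -3.85, standard error 0.31, edgeR adjusted p = 0.00726), and its part in the results was not tested. Of the markers of other cell types, PTPRC reached 1.48 CPM and DES 0.249, and PECAM1 was not analysed here.

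MYC and TXNIP served as checks of the labels. MYC was at 123 to 130 CPM in parental 231+siNT and 63.3 to 66.9 in parental 231+siMyc, and at 122 to 144 CPM in 231:TKO+siNT and 58.2 to 58.7 in 231:TKO+siMyc. It fell by 0.96 on the log2 scale in parental 231 (standard error 0.08, edgeR adjusted p = 2.1e-05) and by 1.18 in 231:TKO (standard error 0.08, edgeR adjusted p = 5.4e-07). The difference between these responses was -0.22 (standard error 0.11, edgeR adjusted p = 1.00), so knockdown was not shown to differ between the populations. TXNIP was at 297 to 315 CPM in parental 231+siNT and at 6.56 to 7.92 in 231:TKO+siNT.

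The genes were chosen by the difference between the responses, that is the log2 change from siNT to siMyc in 231:TKO minus the same change in parental 231. It is a description here and carries no test for these genes. By edgeR, 0 of 25812 genes (0%) passed an adjusted p-value of 0.05. Without adjustment 1039 genes (4.03%) had a p-value below 0.05, 732 of them (2.84%) with a positive and 307 (1.19%) with a negative difference. That count was 2202 (8.8%) without the deviating pair of parental libraries and 2374 (9.2%) with a factor for the pair. DESeq2 called 6 genes (0.0232%). BZW2 stood in place 1 by unadjusted p, PSG9 in place 3, FAM222A in 5, PUS7 in 6, NPM2 in 9 and MIR34AHG in 11. The 5 genes passed over among the first 11 had a mean of 0.112 to 0.623 CPM, and the 6 chosen ones a mean of 0.775 to 51.7 CPM. HHIPL2 and PRSS33 were 2 of those passed over, in places 4 and 10. The unadjusted p-value was 7.6e-04 for MIR34AHG, the last gene chosen, and 7.8e-04 for CCDC169-SOHLH2, the next in order.

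The genes fell into 3 patterns. BZW2 and PUS7 were lower after siMyc in both populations and by more in 231:TKO. PSG9 was higher after siMyc in both and by the larger factor in 231:TKO. FAM222A, NPM2 and MIR34AHG moved in opposite directions by their means. The siMyc and siNT libraries of 231:TKO did not overlap for any of the 6 genes, which held for 34.1% of all genes tested, and those of parental 231 did not overlap for 4 of the 6, against 20% of all genes tested. Without the deviating pair the parental count was again 4, against 52.9%. The rule used these libraries, so nothing is read from these counts.

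**Figure D1:**
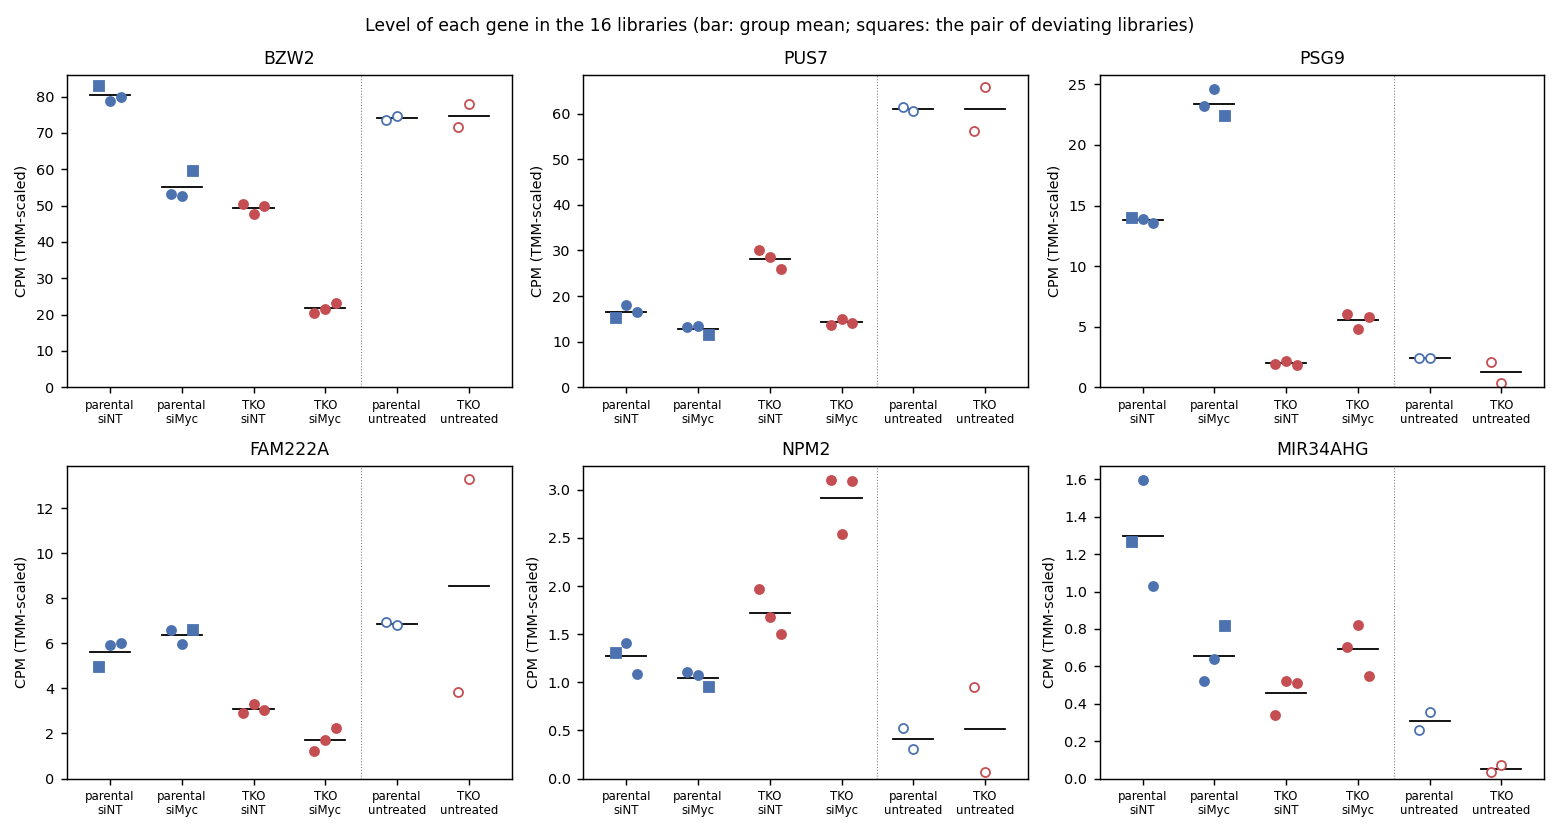
Level of each gene in CPM (vertical axis, from 0) in the 16 libraries, by group; each point is a library, each bar a group mean, and squares mark the deviating pair of parental libraries. Open points right of the dotted line are the untreated libraries, scaled separately. BZW2 and PUS7 had the same untreated level in both populations to within their replicates but unlike levels after siNT.

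BZW2 (ENSG00000136261) lies on chromosome 7 from 16646131 to 16706523 on the plus strand (GRCh38). Its level in parental 231 was 82.9, 78.8 and 79.9 CPM after siNT and 53.3, 52.6 and 59.5 CPM after siMyc. In 231:TKO it was 50.4, 47.8 and 49.8 CPM after siNT and 20.5, 21.6 and 23.2 CPM after siMyc. Every 231:TKO library thus lay below every parental 231 library, and the siNT-treated 231:TKO libraries lay just below the siMyc-treated parental ones. Both libraries of the deviating pair were the highest of their groups for this gene.

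The log2 change of BZW2 was -0.55 (standard error 0.08) in parental 231 and -1.18 (standard error 0.09) in 231:TKO, a difference of -0.63 (standard error 0.12). After siMyc, 68.5% of the siNT level was left in parental 231 and 44.1% in 231:TKO. In absolute terms the loss was alike, with changes of -25.4 ± 2.51 CPM in parental 231 and -27.5 ± 1.10 CPM in 231:TKO (SE, n = 3 per group). The difference between these changes in CPM was -2.15 ± 2.74 (SE), smaller than its error. The larger fold in 231:TKO was thus seen beside a lower siNT level and a similar loss in CPM. How these relate was not tested.

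PUS7 (ENSG00000091127) lies on chromosome 7 from 105439661 to 105522271 on the minus strand. It was measured at 15.2, 18.0 and 16.6 CPM in parental 231+siNT and at 13.2, 13.4 and 11.4 CPM in parental 231+siMyc. In 231:TKO it was at 30.1, 28.5 and 25.9 CPM after siNT and at 13.6, 14.9 and 14.1 CPM after siMyc. The populations thus differed after siNT, with every 231:TKO library above every parental one, and were close after siMyc. In both libraries of the deviating pair PUS7 was the lowest of its group.

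The log2 change of PUS7 was -0.39 (standard error 0.10) in parental 231 and -0.99 (standard error 0.10) in 231:TKO. The loss in CPM was -3.90 ± 1.03 in parental 231 and -14.0 ± 1.28 in 231:TKO (SE, n = 3 per group), so for PUS7 the response was larger in 231:TKO on both scales. The log2 difference of 231:TKO from parental 231 was 0.77 (standard error 0.10) after siNT and 0.17 (standard error 0.10) after siMyc.

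Of the 4 genes with an entry in the RefSeq promoter table (GRCh38.p14), PUS7 was the one whose window of 250 bases before and 50 bases after the start held the E-box CACGTG. The window, chr7:105522222-105522521 on the minus strand, is shown because Myc binds these letters, which stand in capitals and begin at base 29 after the start.
PUS7: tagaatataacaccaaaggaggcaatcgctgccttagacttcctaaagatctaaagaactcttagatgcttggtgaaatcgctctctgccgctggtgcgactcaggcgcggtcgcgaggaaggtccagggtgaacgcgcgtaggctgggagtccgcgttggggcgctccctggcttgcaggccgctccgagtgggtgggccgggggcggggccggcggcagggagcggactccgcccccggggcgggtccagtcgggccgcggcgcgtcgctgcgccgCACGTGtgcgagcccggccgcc
The letters CACGTG, which read the same on both strands, occur in 7.26% of the 35116 promoter windows in the table. The windows of BZW2, FAM222A and MIR34AHG do not hold them. The related letters CACGCG, searched on both strands, occur in 11.4% of all windows and once among these genes, in that of FAM222A. A match describes the sequence and no binding was measured here.

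PSG9 (ENSG00000183668) lies on chromosome 19 from 43211791 to 43269530 on the minus strand, within the cluster of PSG genes. Its level was 14.0, 13.9 and 13.5 CPM in parental 231+siNT and 23.2, 24.6 and 22.4 CPM in parental 231+siMyc. In 231:TKO it was 1.91, 2.20 and 1.86 CPM after siNT and 6.08, 4.77 and 5.82 CPM after siMyc. The groups did not overlap, and the highest 231:TKO library was below the lowest parental one.

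The log2 change of PSG9 was 0.76 (standard error 0.10) in parental 231 and 1.48 (standard error 0.13) in 231:TKO, or levels of 170% and 279% of those after siNT. The order of the responses turned on the linear scale. The gain was 9.60 ± 0.660 CPM in parental 231 and 3.57 ± 0.413 CPM in 231:TKO (SE, n = 3 per group), a difference of -6.03 ± 0.779 CPM. Like that of BZW2, the larger response of PSG9 in 231:TKO thus held for the ratio and not for the CPM gained or lost.

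The PSG genes are near-copies of each other, so reads that fit several of them can be lost or misassigned, and their counts are uncertain. PSG4 and PSG5, the neighbours of PSG9 at 4492 and 25255 bases, had differences between the responses of 0.45 (standard error 0.14) and 0.62 (standard error 0.17), the same sign as that of PSG9. PSG5 was lower in 231:TKO than in parental 231 after siNT, as PSG9 was, at 2.99 ± 0.483 against 9.97 ± 0.897 CPM (SD, n = 3). PSG4 stood the other way around, at 13.8 ± 0.221 CPM in 231:TKO and 9.50 ± 1.14 CPM in parental 231 (SD, n = 3). PSG1 had a difference between the responses of 0.17 (standard error 0.17).

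FAM222A (ENSG00000139438) lies on chromosome 12 from 109713825 to 109770495 on the plus strand. It was at 4.93, 5.95 and 6.02 CPM in parental 231+siNT and at 6.58, 5.95 and 6.60 CPM in parental 231+siMyc. In 231:TKO it was at 2.89, 3.30 and 3.02 CPM after siNT and at 1.24, 1.69 and 2.25 CPM after siMyc. The parental groups overlapped, and the 231:TKO groups did not.

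The log2 change of FAM222A was 0.18 (standard error 0.15) in parental 231 and -0.82 (standard error 0.18) in 231:TKO, where 56.1% of the siNT level was left. The difference was -1.002 (standard error 0.23), and without 231:TKO+siMyc replicate 1, the library with the lowest level, it was -0.82. In CPM the changes were 0.747 ± 0.411 and -1.35 ± 0.315 (SE, n = 3 per group). The antisense gene FAM222A-AS1, which overlaps it, had 0 to 14 counts in the siRNA libraries, against 44 to 379 counts for FAM222A.

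NPM2 (ENSG00000158806) lies on chromosome 8 from 22024125 to 22036897 on the plus strand. Its level was 1.31, 1.41 and 1.09 CPM in parental 231+siNT and 1.11, 1.08 and 0.952 CPM in parental 231+siMyc. In 231:TKO it was 1.97, 1.68 and 1.498 CPM after siNT and 3.10, 2.54 and 3.10 CPM after siMyc. The 231:TKO+siMyc libraries were the highest of the 12, and the parental groups overlapped.

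The log2 change of NPM2 was -0.28 (standard error 0.18) in parental 231 and 0.76 (standard error 0.17) in 231:TKO, a difference of 1.04 (standard error 0.25). The siMyc level was 170% of the siNT level in 231:TKO and 82.5% in parental 231. These values rest on 48 to 124 counts per library. FGF17, the nearest tested gene at 5501 bases, had at most 9 counts in any siRNA library.

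MIR34AHG (ENSG00000228526) lies on chromosome 1 from 9148011 to 9198906 on the minus strand. Its level was 1.26, 1.59 and 1.03 CPM in parental 231+siNT and 0.521, 0.639 and 0.813 CPM in parental 231+siMyc. In 231:TKO it was 0.337, 0.520 and 0.509 CPM after siNT and 0.704, 0.818 and 0.549 CPM after siMyc. Every siMyc-treated library lay below the siNT-treated ones in parental 231 and above them in 231:TKO, a pattern shown by 62 genes of all those tested (0.24%) and, without the deviating pair, by 303 genes (1.17%), MIR34AHG among them. The gap in 231:TKO was narrow, between 0.520 CPM in the highest siNT library and 0.549 CPM in the lowest siMyc library.

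The log2 change of MIR34AHG was -0.98 (standard error 0.24) in parental 231 and 0.60 (standard error 0.30) in 231:TKO, a difference of 1.58 (standard error 0.39), the largest in size and in error of the 6. It rests on 12 to 78 counts per library. After siMyc the populations were at 0.658 ± 0.147 and 0.691 ± 0.135 CPM (SD, n = 3 each), closer than the spread within either group. LNCTAM34A, the antisense gene that overlaps it, had 2 to 15 counts per library and a difference between the responses of 1.53 (standard error 0.82).

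The microRNA itself was not measured, since the libraries were made from mRNA. The mature miR-34a-5p lies at chr1:9151735-9151756 on the minus strand, inside the span of MIR34AHG. Its sequence is given with the seed (bases 2 to 8), which pairs with target mRNAs, in capitals. The 2 other microRNAs shown, from a cluster on chromosome 5, were those found with the same seed in the RefSeq table used. Only that table was searched, so they are not to be read as the full list of human microRNAs with this seed.
hsa-miR-34a-5p: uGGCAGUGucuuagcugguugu
hsa-miR-449a: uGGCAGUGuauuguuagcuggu
hsa-miR-449b-5p: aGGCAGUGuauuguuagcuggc

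**Figure D2:**
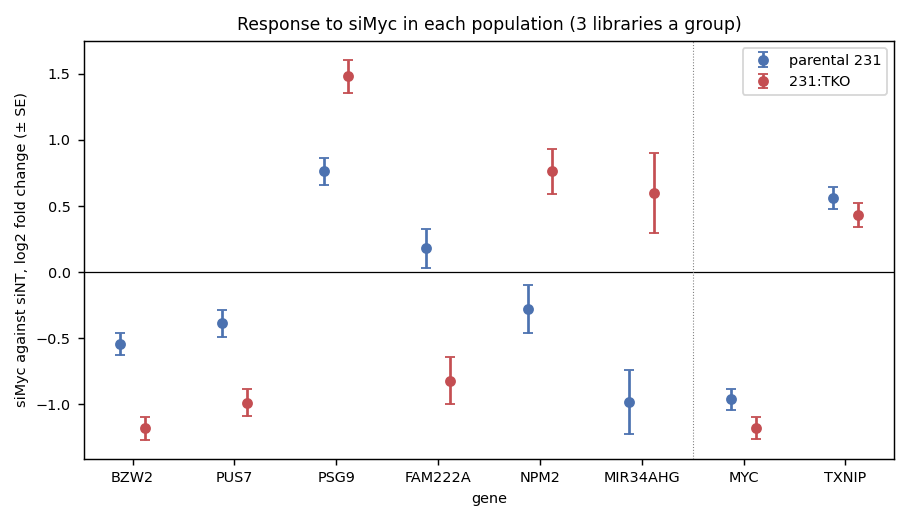
Log2 change from siNT to siMyc (vertical axis) in parental 231 (blue) and 231:TKO (red) for the 6 genes and, right of the dotted line, for MYC and TXNIP; points are fitted values from 3 libraries per group and bars are 1 standard error. BZW2, PUS7 and PSG9 moved the same way in both populations, and FAM222A, NPM2 and MIR34AHG have points on either side of 0.

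Per kilobase of annotated length, BZW2 had the highest level of the 6 after siNT in both populations, at 22.0 CPM per kilobase in parental 231 and 13.5 in 231:TKO. PUS7 followed in both, at 3.74 and 6.36. PSG9 came next in parental 231, at 2.73 CPM per kilobase, but below NPM2 and FAM222A in 231:TKO, at 0.395. NPM2, FAM222A and MIR34AHG were at 0.615, 1.37 and 0.149 CPM per kilobase in parental 231 and at 0.832, 0.747 and 0.0523 in 231:TKO. The libraries of neighbours in this order did not overlap after siNT, except those of NPM2 and FAM222A in 231:TKO.

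The pair of deviating parental libraries set the spread against which the genes were judged. The common biological variation (coefficient) was 11.7% in the fit of the 12 siRNA libraries and 4.98% with a factor for the pair. With that factor 147 genes (0.57%) passed the threshold, all 6 genes among them, with adjusted p-values from 1.0e-07 for BZW2 to 0.0241 for NPM2 (edgeR). With the pair left out 63 genes (0.252%) passed, among them BZW2 (adjusted p = 2.6e-05), PUS7 (0.0012) and FAM222A (0.0256). MIR34AHG (0.0517), PSG9 (0.0852) and NPM2 (0.230) did not. DESeq2 on all 12 libraries called BZW2 (adjusted p = 6.6e-05) and PUS7 (0.0453) and gave 0.0685 for FAM222A. Over all alternatives the adjusted p-value ran from 6.7e-13 to 1.00 for BZW2 and from 0.0191 to 1.00 for MIR34AHG. These p-values describe the settings and are no independent evidence, since the same contrast chose the genes.

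The differences themselves moved less than their calls. Without the pair, the difference between the responses was -0.66 for BZW2, -0.67 for PUS7, 0.62 for PSG9, -0.95 for FAM222A, 0.89 for NPM2 and 1.72 for MIR34AHG. The response in parental 231 alone was then -0.55 for BZW2, -0.34 for PUS7, 0.83 for PSG9, 0.10 for FAM222A, -0.16 for NPM2 and -1.15 for MIR34AHG. On the linear scale without the pair, the CPM lost by BZW2 was again close in the populations, with a difference of -1.17 ± 1.27 CPM (SE). The CPM gained by PSG9 was again larger in parental 231, with a difference of -6.62 ± 0.837 CPM (SE). For PUS7 the difference was -10.0 ± 1.47 CPM, for FAM222A -1.63 ± 0.447, for NPM2 1.35 ± 0.282 and for MIR34AHG 0.966 ± 0.306 (SE). The log2 difference of 231:TKO from parental 231 after siNT was -0.65 for BZW2, 0.74 for PUS7, -2.75 for PSG9 and -1.49 for MIR34AHG without the pair.

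**Figure D3:**
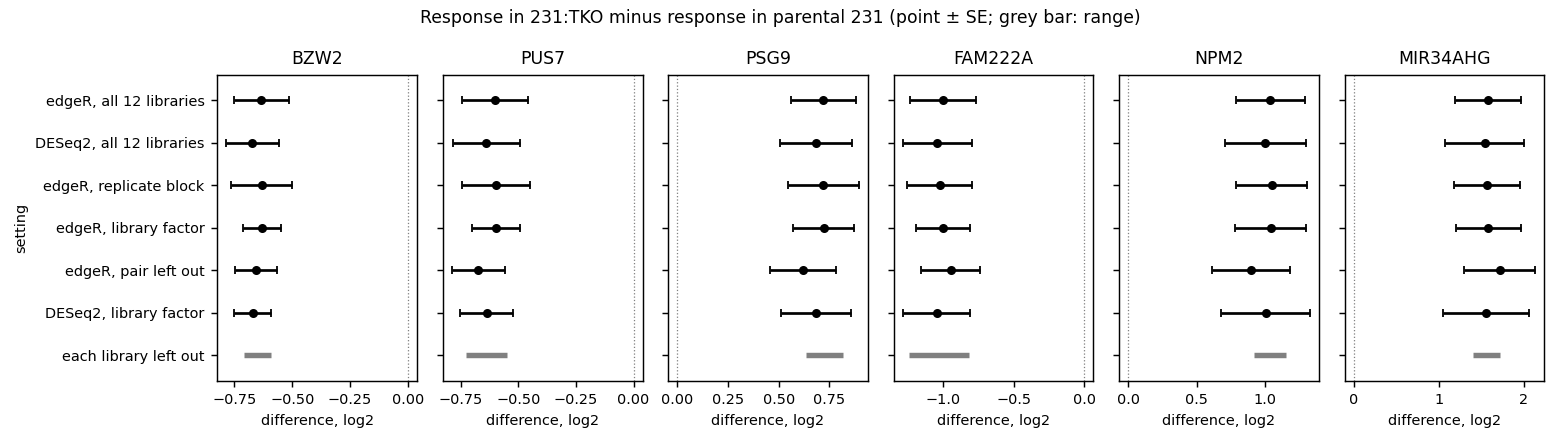
Difference between the responses to siMyc, 231:TKO minus parental 231, on the log2 scale (horizontal axis), for each gene under 6 settings; points are fitted values with 1 standard error, and the grey bar spans the values with each of the 12 siRNA libraries left out in turn. Each gene kept its sign in every setting drawn, while the standard error of BZW2 was 0.12 with all libraries and 0.08 with the library factor.

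The untreated libraries were not used to choose the genes, and in them the populations could be tested. By edgeR, 1919 of 19951 genes tested (9.62%) passed the threshold, 1085 of them higher (5.44%) and 834 lower (4.18%) in 231:TKO. Of the 6 genes 0 passed with edgeR, and 1, MIR34AHG, had an unadjusted p-value below 0.05, against 25.9% of all genes tested. DESeq2 called 0 of the 5 for which it gave an adjusted p-value, all but MIR34AHG. Untreated replicates were far apart for several of them. The TXNIP level itself differed between the untreated 231:TKO replicates, at 12.6 and 46.6 CPM, against 290 and 291 CPM in untreated parental 231.

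Untreated BZW2 was at 73.6 and 74.8 CPM in parental 231 and at 71.5 and 77.9 CPM in 231:TKO, a log2 difference of 0.01 (standard error 0.07, edgeR adjusted p = 0.947). After siNT the log2 difference between the populations was -0.71 (standard error 0.08). The lower BZW2 level of 231:TKO in the siRNA libraries was thus not present in the untreated cells, where the replicates overlapped.

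Untreated PUS7 was at 61.5 and 60.5 CPM in parental 231 and at 56.2 and 65.8 CPM in 231:TKO, a log2 difference of -0.00 (standard error 0.10, edgeR adjusted p = 1.00). These levels are above those in every siRNA library of either population. Untreated and siRNA-treated cells differed in read layout and were scaled separately, so the share of treatment in this cannot be told apart.

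Untreated PSG9 was at 2.40 and 2.45 CPM in parental 231 and at 2.07 and 0.386 CPM in 231:TKO (log2 difference -0.97, standard error 0.76, edgeR adjusted p = 0.504). Here parental 231 was near the siNT level of 231:TKO, not near its own. Without 231:TKO replicate 1 the difference was -2.65 with an edgeR adjusted p of 0.00314 (0.00314 to 0.786 over all alternatives), and without replicate 2 it was -0.23 (edgeR adjusted p = 0.475).

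FAM222A was at 6.93 and 6.80 CPM in untreated parental 231, and its 231:TKO replicates lay on either side, at 3.84 and 13.3 CPM (log2 difference 0.32, standard error 0.60, edgeR adjusted p = 0.796). It was 0.94 without 231:TKO replicate 1 and -0.84 without replicate 2, each past the threshold, so 1 library decided its direction. NPM2 was at 0.521 and 0.307 CPM in parental 231 and at 0.952 and 0.0702 CPM in 231:TKO (log2 difference 0.31, standard error 1.12, edgeR adjusted p = 0.897). The untreated cells therefore gave no common direction for these genes.

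MIR34AHG had the largest untreated difference of the 6, with 5 and 7 counts in parental 231 and 1 and 2 counts in 231:TKO. The ratio of the summed counts per library total was 0.163 (exact 95% counting interval 0.0294 to 0.602), and the fitted log2 difference was -2.47 (standard error 0.68, unadjusted p = 0.0143, edgeR adjusted p = 0.0934). The groups did not overlap, as was true of PSG9 and of 57.7% of all genes tested. After siNT the log2 difference was -1.51 (standard error 0.27). The rule used the siNT libraries, so nothing is read from its sign.

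**Figure D4:**
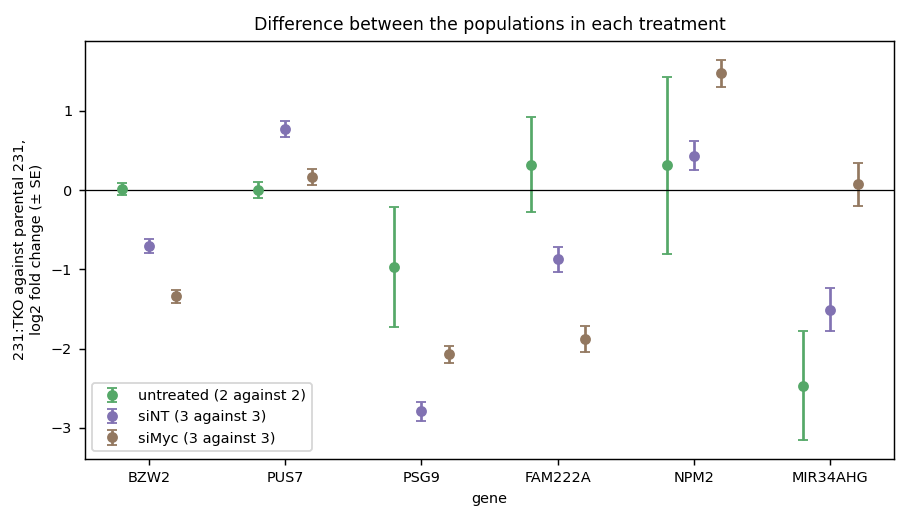
Log2 difference of 231:TKO from parental 231 (vertical axis) in untreated (green, 2 against 2 libraries), siNT-treated (purple) and siMyc-treated cells (brown, 3 against 3 each); bars are 1 standard error. BZW2 and PUS7 lie at 0 in untreated cells. PUS7, PSG9 and MIR34AHG lie closer to 0 after siMyc than after siNT, and BZW2, FAM222A and NPM2 lie farther from it.

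Other genes of the same families and pathways were read from lists that leave the 6 genes out. Of 16 genes for start codon choice and eIF2, the group of BZW2, 5 fell and 0 rose after siMyc in 231:TKO, and 4 fell and 0 rose in parental 231. Of all genes tested, 9.66% passed in 231:TKO (5.28% higher and 4.38% lower) and 6.45% in parental 231 (2.8% higher and 3.65% lower). When only genes with more than 5 counts in every library were fitted, 19.4% passed in 231:TKO and 13.4% in parental 231. EIF1AX fell by 0.41 in 231:TKO and 0.37 in parental 231 on the log2 scale (edgeR adjusted p = 0.00667 and 0.0198), and EIF2A by 0.31 and 0.36 (0.0180 and 0.0112). BZW1, the paralog of BZW2, had log2 changes of 0.03 (adjusted p = 0.916) and 0.08 (0.667). In untreated 231:TKO 3 of the 16 were higher, BZW1 with a log2 difference of 0.79 (adjusted p = 0.0192).

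Among 12 other pseudouridine synthases, 5 fell in 231:TKO and 3 in parental 231, and 0 rose in either. DKC1, the enzyme of the box H/ACA particles, fell by 0.78 and 0.68 on the log2 scale (edgeR adjusted p = 7.9e-06 and 1.3e-04), and PUS1 by 0.83 and 0.74 (7.5e-04 and 0.00263). Their differences between the responses were -0.10 and -0.09, against -0.60 for PUS7. PUS7L, the paralog of PUS7, had log2 changes of -0.46 in 231:TKO (adjusted p = 0.00826) and -0.32 in parental 231 (0.0716).

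In the PSG and CEACAM family, 13 of 21 listed genes were tested besides PSG9, and 4 rose and 0 fell in each population. PSG1 rose by 1.06 in 231:TKO and 0.89 in parental 231 on the log2 scale (edgeR adjusted p = 2.8e-05 and 3.8e-04), PSG4 by 1.20 and 0.76 (3.0e-06 and 3.7e-04) and PSG5 by 1.39 and 0.78 (3.8e-06 and 4.7e-04). The median of the 13 was 0.64 in 231:TKO and 0.63 in parental 231, against medians over all genes tested of 0.02 and -0.00. Several of the 13 had a mean below 1 CPM in every siRNA group, so these medians rest partly on genes with few counts. In the untreated cells 0 of 11 passed.

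Of 18 histone chaperones, the group of NPM2, 11 fell in 231:TKO and 8 in parental 231, and 0 rose in either. Its paralogs NPM1 and NPM3 were among those that fell in both populations. NPM3 fell by 1.12 and 0.63 on the log2 scale (edgeR adjusted p = 2.4e-04 and 0.0204), and NPM1 by 0.53 and 0.52 (0.00231 and 0.00428). The difference between the responses was -0.49 for NPM3 (standard error 0.21), opposite in sign to the 1.04 of NPM2, and -0.00 for NPM1.

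Of 22 p53 target genes, 4 rose and 3 fell in 231:TKO and 1 rose and 3 fell in parental 231, with a median difference between the responses of 0.09 against 0.03 over all genes tested. TP53INP1 rose by 0.91 and 0.77 on the log2 scale and AEN fell by 0.72 and 0.65 (edgeR adjusted p at most 3.2e-04 for each). Unlike MIR34AHG, both moved the same way in the populations. Of 16 genes often named as targets of miR-34a, 2 fell and 0 rose in 231:TKO and 1 rose and 1 fell in parental 231. LDHA, which makes lactate, fell by 0.64 and 0.32 on the log2 scale (adjusted p = 8.9e-05 and 0.0255), and CCND1, cyclin D1, rose by 0.39 in parental 231 (0.0241) and had a log2 change of 0.11 in 231:TKO (0.60).

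In every list 0 genes passed the test of the difference between the responses with all 12 libraries. With the factor for the deviating pair, 5 listed genes did. They were PSG4 (0.44) and PSG5 (0.61), higher in 231:TKO on the log2 scale, and NPM3 (-0.48), LDHA (-0.32) and CCND1 (-0.28), lower, with edgeR adjusted p-values from 0.00285 to 0.0201. That factor also raised the counts of listed genes that responded to siMyc, as it did over all genes tested, of which 14.1% were then higher and 11.1% lower in 231:TKO, and 11.2% higher and 11.4% lower in parental 231. In 231:TKO and parental 231, 11 and 9 of the start codon and eIF2 genes fell, 8 and 6 of the pseudouridine synthases and 14 and 14 of the histone chaperones, with 0 higher in each list. Of the PSG and CEACAM genes 4 and 7 rose, of the p53 targets 5 and 5 rose and 3 and 4 fell, and of the miR-34a targets 2 and 2 rose and 6 and 4 fell. FAM222B, the paralog of FAM222A, had a difference of -0.22 (standard error 0.20) with all libraries.

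**Figure D5:**
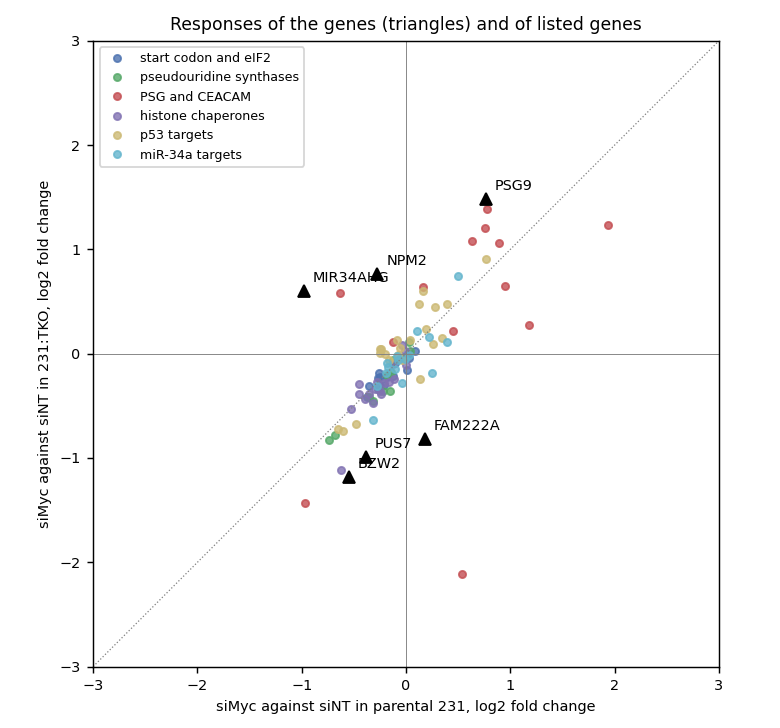
Log2 change from siNT to siMyc in parental 231 (horizontal axis) and 231:TKO (vertical axis) for the 6 genes (triangles) and for the tested genes of 6 lists (points, coloured by list); the dotted diagonal marks equal responses. Most listed genes lie near the diagonal, and PSG4 and PSG5 lie above it.

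Genes next to the 6 on the chromosome were also read. Within 250000 bases, 4 to 9 genes with a mean of at least 1 CPM were tested around each gene, and their median difference between the responses ran from -0.23 around BZW2 to 0.19 around MIR34AHG. ANKMY2, which starts 314 bases from BZW2 on the other strand, had a difference of 0.03 (standard error 0.12), against -0.63 for BZW2. RINT1, 9898 bases from PUS7, had a difference of 0.07 (standard error 0.12). Around PSG9, PSG4 and PSG5 were the 2 of 5 neighbours with an unadjusted p-value under 0.05.

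Over the 12 siRNA libraries, the genes with the pattern most like each of the 6 were found among 13521 genes with a mean of at least 1 CPM, by Pearson's r of log2(CPM + 1). BZW2 was most like HSP90AB1 (0.990), BYSL (0.987) and CTSC (0.985), and PUS7 was most like TXNL4B (0.969), CDC25A (0.966) and KLHL23 (0.956). PSG9 was most like RASSF4 (0.994), COL8A1 (0.994) and ANXA8 (0.993), and FAM222A most like SMIM13 (0.966), SPRED1 (0.964) and CTBP2 (0.963). NPM2 was most like PATL2 (0.946) and COG6 (0.946), and MIR34AHG most like SCNN1D (0.909), RHPN1 (0.909) and HLA-K (0.904). The points share libraries and 4 groups, so these values describe the order of the group means. Among the 6 genes, r ran from -0.937 for FAM222A with NPM2 to 0.866 for BZW2 with FAM222A.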

How the data were processed

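Poly(A) RNA was sequenced in 16 libraries of MDA-MB-231 cells with a stranded kit. The authors deposited raw counts per gene, made with featureCounts 1.6.3 on the reverse strand by largest overlap on GRCh38, without normalization. Identifiers shared by both annotation releases (60620) were kept, and 96.8% had a symbol. Genes with more than 5 counts summed over a fit entered edgeR 4.0.16 under R 4.3.3 (TMM scaling, robust quasi-likelihood test, Benjamini-Hochberg adjustment over all genes tested, threshold 0.05). The 12 siRNA libraries formed 1 fit and the 4 untreated libraries another. CPM are TMM-scaled. Intervals cover counting error only. DESeq2 1.42.0 was an alternative. The genes and lists were chosen with earlier results of these data known. Genes named were the 6, MYC and TXNIP, paralogs, up to 3 listed genes with the lowest adjusted p, neighbours in order or on the chromosome, and the most correlated genes. The factor for the deviating pair, leaving that pair out, DESeq2 with the factor and thinning of untreated libraries were added after the data were seen. Replicates were described as biological by the study. The steps were tested on simulated data with a smaller spread than the main fit of the 12 siRNA libraries and no deviating pair. That run does not show how the steps behave on these libraries.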

Additional observations from a re-analysis of the deposited data

Results flagged for a closer look

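MIR34AHG was set aside because all 3 siMyc libraries lay below every siNT library in parental 231 and above every one in 231:TKO. Of all genes tested, 0.24% showed this pattern, and 1.17% did without the deviating pair of parental libraries. The gap in 231:TKO was narrow, at 0.520 CPM in the highest siNT and 0.549 in the lowest siMyc library. The log2 change there was 0.60 (standard error 0.30, edgeR adjusted p = 0.275). The difference between the responses was 1.58 on the log2 scale (standard error 0.39, edgeR adjusted p = 1.00 over all genes tested), from 12 to 78 counts per library. The same contrast chose the gene, so the value is a description.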

How the results depend on the processing

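Each of the 6 differences between the responses kept its sign under every alternative tried. With each library left out in turn, they lay between -0.71 and -0.59 for BZW2, -0.73 and -0.55 for PUS7, 0.64 and 0.82 for PSG9, -1.24 and -0.82 for FAM222A, 0.92 and 1.15 for NPM2 and 1.40 and 1.73 for MIR34AHG, and the count of genes past the threshold was 0 each time. The count was 6 with DESeq2, 147 with the library factor, 114 with DESeq2 and that factor and 63 with the pair left out. The pair left out gave 0.62 for PSG9, 0.89 for NPM2 and 1.72 for MIR34AHG.

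The count of genes responding to siMyc in parental 231 (1666) was 141 with the 6 libraries of the population alone, 2644 with DESeq2, 5835 with the library factor, 4576 with the pair left out, 1084 with the replicate block and 842 to 2382 with each library left out. In 231:TKO (2493) it was 6107 with the 6 libraries alone, 6498 with the factor, 6304 with the pair left out and 1292 to 3480 with each library left out. The untreated count (1919) was 903 with the replicate block and 0 to 6995 with each library left out.

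Untreated log2 differences of the populations with each library left out lay between -0.0512 and 0.0558 for BZW2, -0.12 and 0.10 for PUS7, -2.65 and -0.23 for PSG9, -0.84 and 0.94 for FAM222A, -2.48 and 1.19 for NPM2 and -0.14 and 0.23 for MYC. With no filter on low counts that of PUS7 was 0.0104. The cause was not tested.

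Whether replicate numbers pair the samples was not settled. Over 18 pairs of libraries with the same number the correlation of deviations ran from -0.902 to 0.786, with 4 over 0.1. Between siNT and siMyc it was -0.902, 0.786 and -0.831 in parental 231 for numbers 1, 2 and 3. In 231:TKO it was -0.272, 0.297 and 0.459. The deviating parental libraries bear unlike numbers, so these values cannot decide on pairing in parental 231. The replicate block moved the counts as given and the differences of the 6 genes to between -1.03 and 1.57, with 0 genes past the threshold.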
